A study of Rattus norvegicus with 6 samples.

Results

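The genes described here are a module of glucose breakdown and of the transcriptional response to low oxygen. It was set out as 36 gene symbols in 4 roles: 16 glycolytic enzymes, 6 genes that control the entry of glucose and the fate of pyruvate, 10 hypoxia targets outside glycolysis, and 4 genes that sense oxygen. A gene was taken as measured when an array row carried exactly 1 symbol and that symbol was the member's current or older name, and where a gene had several rows the row with the highest mean was used. On this rule 35 of the 36 were found among 14324 measured genes, and the hexokinase gene Hk1 was not analysed here. The RNA came from the aorta of male Fisher 344 rats aged 1 to 2 months, with no other genetic or drug treatment named in the labels. Freshly cut aortic rings formed the day 0 group, and rings embedded in collagen gel and cultured in serum-free medium formed the day 1 group. Each group held 3 arrays, and each array carried RNA pooled from 4 to 6 rings or cultures, described as biological replicates. Whether an animal gave rings to more than 1 pool is not given, and the p-values therefore reflect only how far these pools differ from each other, which may be technical.

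Glycolysis converts glucose to pyruvate in the cytosol, and cells that send the pyruvate to lactate can make ATP this way without oxygen. The hypoxia-inducible factor (HIF) is a pair of proteins whose alpha subunit, from Hif1a or Epas1, is hydroxylated by the enzymes of Egln1 and Egln3 when oxygen is present and is then destroyed. When oxygen is short the alpha subunit persists, binds DNA and raises the transcription of glucose transporters, of most glycolytic enzymes and of genes for pH control, mitochondrial removal and blood vessel tone. Glycolytic genes also answer to growth factor signalling and to MYC. Several members, in glycolysis and outside it, are used as markers of HIF activity. Which of these signals acted here was not tested. The vessel wall is a tissue in which smooth muscle is the main cell type.

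After 1 day of culture most glycolytic enzyme transcripts were higher, and the hypoxia targets outside glycolysis were higher less uniformly. With limma and an adjusted p of 0.05, 26 of the 35 members rose, 2 fell and 7 did not pass. Over all measured genes 48.3% passed, made up of 27.6% that rose and 20.7% that fell. Of the 15 measured glycolytic enzymes 13 rose, with a median log2 change of 1.12 over the 15, and of the 10 targets outside glycolysis 7 rose, with a median of 0.48. The median over all genes was -0.01. The level at least doubled, past the threshold, in 13 members, among them 8 of the 15 enzymes and 1 of the 10 targets, Car9. The same held for 4.13% of all genes, and 4.11% were at least 2-fold lower. The arrays of day 0 and day 1 did not overlap for 28 of the 35 members, 26 of them higher on day 1. Over all genes this was so for 56.9%, with 31.4% higher on day 1 and 25.5% lower. These are descriptions of the lists, and no test of the difference between the enzymes and the targets was made.

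**Figure D1:**
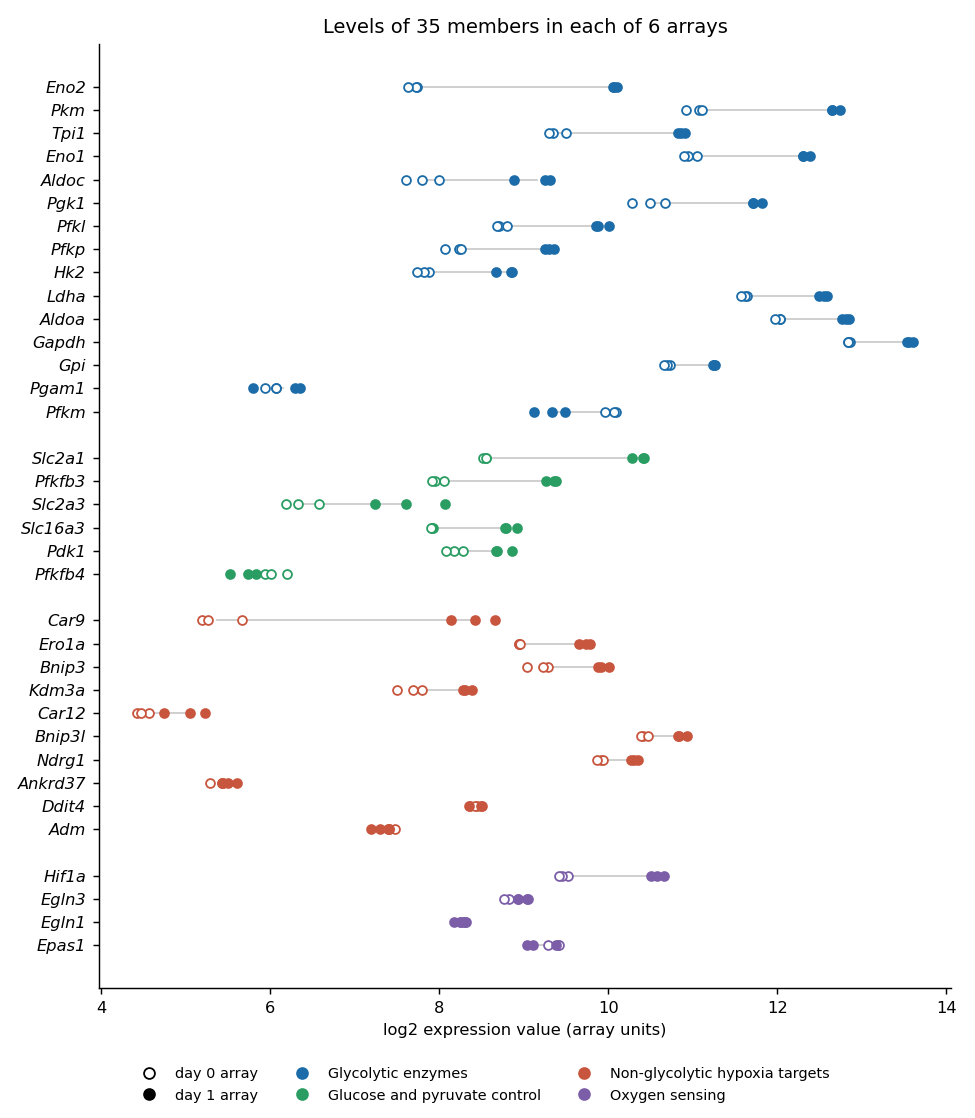
Log2 expression value (horizontal axis) of each of the 35 measured members in each of the 6 arrays, with open points for day 0, filled points for day 1, colours for role and a grey line joining the group means. The filled points lie to the right of the open points in 13 of the 15 glycolytic enzymes, and the days overlap in Pgam1, Ankrd37, Ddit4, Adm, Egln3, Egln1 and Epas1. Positions of different genes cannot be compared, since rows differ in probe response.

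The stretches printed next show where the letters ACGTG, the core of the element that HIF binds, stand beside the start of a selection of the members. The core was searched on both strands, so that CACGT counts as a match, in RefSeq windows of assembly GRCr8 from 250 bases before to 50 bases after an annotated start. A window was found for 30 of the 35 members, and 19 of these 30 genes (63.3%) held the core in at least 1 window. Among the 11825 measured genes with a window, 2700 (22.8%) held it. The core stood in 9 of 14 glycolytic enzymes, in 5 of 7 targets outside glycolysis, in 3 of 5 genes of glucose and pyruvate control and in 2 of 4 oxygen-sensing genes. It stood in 14 of the 21 members with a window that rose and in 5 of the 9 that did not. The members that rose without it were Hk2, Pfkl, Pfkp, Tpi1, Pkm, Slc16a3 and Kdm3a. Of the targets outside glycolysis that did not pass the test, Ankrd37 and Ddit4 held the core and Adm did not. The variant GCGTG was present in 15 of the 30 members and in 41.3% of measured genes. The palindrome CACGTG, the E-box that MYC and other factors bind, contains the core on both strands. It was found in 5 of the 30 members (16.7%) and in 8.07% of measured genes. A match is a run of letters and not a shown binding site.

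The stretches run from 150 bases before to 20 bases after an annotated start, 5′ to 3′ on the strand of the gene, with each match of the core in capitals. Overlapping matches on both strands form CACGTG in Ldha, Bnip3 and Ankrd37. Car9, Slc2a1, Eno2, Ldha and Bnip3 are shown as members that rose, Ankrd37 as a member that holds the core and did not pass the test, and Pkm as a member that rose and holds no core in its window.
Car9 (chr5:62558874-62559043, plus strand): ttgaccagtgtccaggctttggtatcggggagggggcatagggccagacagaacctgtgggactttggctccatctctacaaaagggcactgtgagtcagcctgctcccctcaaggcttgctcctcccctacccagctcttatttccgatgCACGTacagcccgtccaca
Slc2a1 (chr5:138002372-138002541, plus strand): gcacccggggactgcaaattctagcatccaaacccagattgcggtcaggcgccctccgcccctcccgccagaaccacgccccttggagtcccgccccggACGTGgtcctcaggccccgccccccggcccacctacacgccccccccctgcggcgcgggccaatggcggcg
Eno2 (chr4:159267201-159267370, minus strand): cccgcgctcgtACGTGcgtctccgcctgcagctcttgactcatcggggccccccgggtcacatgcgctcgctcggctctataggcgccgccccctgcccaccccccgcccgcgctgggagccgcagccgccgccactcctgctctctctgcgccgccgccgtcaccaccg
Ldha (chr1:106507942-106508111, plus strand): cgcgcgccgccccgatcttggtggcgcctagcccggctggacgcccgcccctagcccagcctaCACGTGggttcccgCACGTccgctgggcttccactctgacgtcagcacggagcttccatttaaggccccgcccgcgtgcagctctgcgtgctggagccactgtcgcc
Bnip3 (chr1:203154943-203155112, minus strand): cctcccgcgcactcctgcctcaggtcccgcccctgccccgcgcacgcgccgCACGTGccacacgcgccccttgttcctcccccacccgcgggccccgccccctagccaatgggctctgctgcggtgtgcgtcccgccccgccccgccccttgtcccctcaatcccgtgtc
Ankrd37 (chr16:53001357-53001526, plus strand): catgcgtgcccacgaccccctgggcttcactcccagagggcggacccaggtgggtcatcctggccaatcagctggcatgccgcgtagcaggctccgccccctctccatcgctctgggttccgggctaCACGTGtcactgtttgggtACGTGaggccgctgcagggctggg
Pkm (chr8:68953485-68953654, plus strand): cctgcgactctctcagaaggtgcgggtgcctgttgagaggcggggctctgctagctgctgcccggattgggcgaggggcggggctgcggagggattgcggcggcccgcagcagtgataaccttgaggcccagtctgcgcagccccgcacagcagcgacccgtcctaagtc

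Within the printed 170 bases, Ankrd37 had 3 matches of the 4 in its whole window, the highest number among the members. In these counts each CACGTG stands for 2 overlapping matches, 1 on each strand. Ldha had 3 matches, Bnip3 had 2, and Car9, Slc2a1 and Eno2 had 1 each.

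Glucose enters the cell through facilitative transporters, and both member genes of this kind rose. Slc2a1, the widely expressed transporter GLUT1, stood at 8.55, 8.51 and 8.55 on day 0 and at 10.42, 10.28 and 10.40 on day 1, a log2 change of 1.83 ± 0.06 (SE, n = 3 per group) or 3.56-fold (adjusted p = 3.29e-07). The day 0 arrays lay within a narrow band, and every day 1 array was well above it. Slc2a3, the high-affinity transporter GLUT3, stood at 6.58, 6.33 and 6.19 on day 0 and at 7.61, 7.24 and 8.07 on day 1, a change of 1.28 ± 0.20 (adjusted p = 0.00104). Its day 1 arrays were spread more widely (SD 0.42) than those of other members, but they did not overlap with day 0.

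Hexokinase traps glucose by phosphorylation. Hk2, its inducible form, stood at 7.88, 7.81 and 7.74 on day 0 and at 8.86, 8.67 and 8.85 on day 1, a change of 0.99 ± 0.08 (adjusted p = 1.93e-05). Gpi, the isomerase of the next step, had the smallest rise among the enzymes that passed, 0.56 ± 0.06 (adjusted p = 8.66e-05).

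Phosphofructokinase, the committed step of glycolysis, is built from 3 related subunits, and these went in opposite directions. Pfkl, the liver-type subunit, stood at 8.71, 8.79 and 8.68 on day 0 and at 10.01, 9.85 and 9.88 on day 1, a rise of 1.18 ± 0.07 (adjusted p = 4.35e-06). Pfkp, the platelet-type subunit, stood at 8.23, 8.25 and 8.07 and then at 9.36, 9.25 and 9.30, a rise of 1.12 ± 0.07 (adjusted p = 7.23e-06). Pfkm, the muscle-type subunit, stood at 10.08, 10.06 and 9.96 on day 0 and at 9.49, 9.33 and 9.12 on day 1, a change of -0.72 ± 0.10 (adjusted p = 4.76e-04). Pfkm was the only enzyme of the list that fell, and its groups did not overlap. The change of Pfkl exceeded that of Pfkm by 1.91 ± 0.08 (SE, from the difference within each array), and that of Pfkp exceeded it by 1.84 ± 0.10. The changes of Pfkp and Pfkl differed by -0.07 ± 0.04, with overlapping arrays.

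These 3 pairs belong to 11 pairs of related members compared in this way. An exact two-sided permutation test of 3 arrays against 3 cannot give less than p = 0.1, and 8 of the 11 pairs reached that floor (0.138 after Benjamini-Hochberg adjustment over the pairs), so no pair could pass on this test.

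The regulators of the same step also parted. The enzymes of Pfkfb3 and Pfkfb4 make the small molecule that activates phosphofructokinase. Pfkfb3 stood at 8.06, 7.94 and 7.91 on day 0 and at 9.26, 9.38 and 9.35 on day 1, a rise of 1.36 ± 0.07 (adjusted p = 2.02e-06). Pfkfb4 stood at 5.94, 6.01 and 6.19 and then at 5.82, 5.52 and 5.73, a change of -0.36 ± 0.10 (adjusted p = 0.0201). The fall of Pfkfb4 was small, on a row dimmer than the median gene, and the call rested on single arrays. Leaving out day 0 replicate 3 gave -0.28 with an adjusted p of 0.0646. Leaving out day 1 replicate 2 gave -0.27 with an adjusted p of 0.0600. The change of Pfkfb3 exceeded that of Pfkfb4 by 1.72 ± 0.17.

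The enzymes of the later steps, from the splitting of the sugar to pyruvate, rose with the exception of Pgam1, which had a single dim row. Aldoa, the aldolase of muscle and most other tissues, rose by 0.80 ± 0.06 (adjusted p = 1.49e-05), and the brain-enriched form Aldoc rose by 1.35 ± 0.14 (adjusted p = 9.05e-05). Aldoc stood at 7.61, 7.99 and 7.79 on day 0 and at 9.25, 9.31 and 8.88 on day 1. Both days were loose for Aldoc, and its change exceeded that of Aldoa by 0.55 ± 0.16. Tpi1, which interconverts the products of that split, stood at 9.35, 9.30 and 9.49 and then at 10.85, 10.83 and 10.90, a rise of 1.48 ± 0.07 (adjusted p = 1.57e-06). Pgk1, the first enzyme of the pathway to regain ATP, stood at 10.67, 10.49 and 10.27 and then at 11.82, 11.71 and 11.71, a rise of 1.27 ± 0.10 (adjusted p = 2.52e-05).

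Gapdh, often used as a reference gene, was not stable in this comparison. It stood at 12.86, 12.84 and 12.83 on day 0 and at 13.60, 13.55 and 13.54 on day 1, a rise of 0.72 ± 0.06 or 1.65-fold (adjusted p = 2.17e-05). The array carried 16 rows annotated to Gapdh alone, and all 16 were higher in every day 1 array than in every day 0 array, with changes from 0.72 to 0.86. The row used was the brightest and had the smallest of these changes. On day 0 it was brighter than 99.8% of genes. With quantile normalization the change of this row was 0.54 (limma adjusted p = 1.09e-04), so the size of the rise depends on the scaling. Near-identical copies of a gene can bind the same probes, so rows of Gapdh, Eno1, Pkm and Ldha are not independent measurements. The 3 rows of Eno1 changed by 1.37 to 1.45, the 3 rows of Pkm by 1.59 to 1.64 and the 2 rows of Ldha by 0.93 to 0.97.

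The enolase genes contained the largest rise of the pathway. Eno2, the enolase best known from neurons, stood at 7.74, 7.72 and 7.63 on day 0 and at 10.06, 10.10 and 10.05 on day 1, a change of 2.37 ± 0.06 or 5.18-fold (adjusted p = 9.91e-08). It ranked 67 of the 14324 genes by size of rise. Eno1, the ubiquitous enolase, rose by 1.37 ± 0.07 (adjusted p = 1.76e-06), and the change of Eno2 exceeded it by 1.01 ± 0.05. Neuron and Schwann cell markers, of which 5 of 7 were measured, had a summed level (the log2 of their summed linear values) of 7.41 to 7.47 on day 0 and 7.43 to 7.58 on day 1. One of them, the tubulin gene Tubb3, rose by 0.39. The part of such cells in the rise of Eno2, Aldoc or Slc2a3 was not tested.

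Pkm, the pyruvate kinase gene of most tissues, stood at 11.08, 11.11 and 10.92 on day 0 and at 12.74, 12.64 and 12.65 on day 1, a rise of 1.64 ± 0.07 or 3.12-fold (adjusted p = 1.07e-06). The rows do not separate its 2 splice forms. Pgam1, the mutase between Pgk1 and enolase, stood at 6.06, 6.06 and 5.94 on day 0 and at 6.35, 6.29 and 5.79 on day 1, a change of 0.12 ± 0.14 (95% confidence interval -0.21 to 0.45, adjusted p = 0.520). Its arrays overlapped because day 1 replicate 3 was the lowest of the 6, and without that array the change was 0.30 (adjusted p = 0.0171). Pgam1 had a single row, and on day 0 that row was brighter than 40.8% of genes, whereas every other glycolytic enzyme was brighter than at least 64.5%. Whether that row reads the Pgam1 transcript well was not tested, so Pgam1 may not be a true exception.

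The fate of pyruvate is set by lactate dehydrogenase, by export of lactate and by the gate to the mitochondria. Ldha, which favours lactate, stood at 11.64, 11.62 and 11.57 and then at 12.58, 12.55 and 12.49, a rise of 0.93 ± 0.06 (adjusted p = 7.21e-06). Slc16a3, the lactate exporter MCT4, rose by 0.91 ± 0.06 (adjusted p = 1.17e-05). Pdk1, a kinase that shuts pyruvate dehydrogenase, stood at 8.28, 8.17 and 8.08 on day 0 and at 8.85, 8.68 and 8.67 on day 1, a rise of 0.56 ± 0.08 (adjusted p = 6.48e-04). For each of these genes the groups did not overlap.

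**Figure D2:**
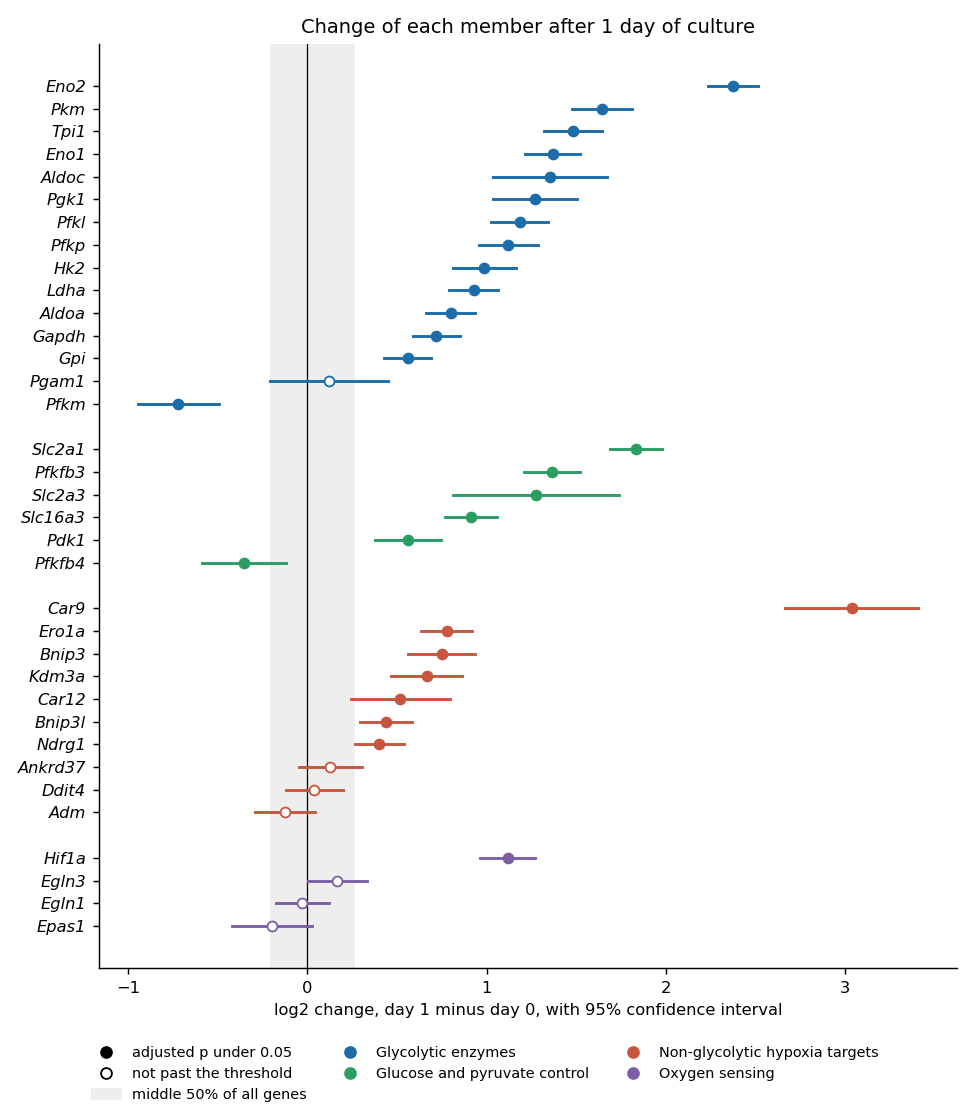
Log2 change from day 0 to day 1 (horizontal axis) of each member with its 95% confidence interval from limma, 3 arrays per group, filled where the adjusted p was under 0.05 and open where it was not. The grey band holds the middle 50% of all 14324 genes, from -0.20 to 0.26. Among the glycolytic enzymes only Pgam1 has its point inside the band, whereas Ankrd37, Ddit4, Adm, Egln3, Egln1 and Epas1 lie inside it among the targets and oxygen-sensing genes.

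Among the hypoxia targets outside glycolysis, Car9 stood apart. This gene encodes carbonic anhydrase 9, a cell surface enzyme of acid balance. It stood at 5.19, 5.26 and 5.66 on day 0 and at 8.66, 8.42 and 8.14 on day 1, a change of 3.04 ± 0.16 or 8.20-fold (adjusted p = 2.64e-06). On day 0 the row was brighter than 32.0% of genes and on day 1 than 74.1%, and by size of rise Car9 ranked 30 of all genes. Its day 0 level was near the dim end of the array, where background signal compresses differences, and this limits how well the fold is known. Car12, a related surface enzyme, stood at 4.43, 4.56 and 4.47 and then at 4.74, 5.22 and 5.05, a rise of 0.52 ± 0.12 (adjusted p = 0.00782). Both days of Car12 were dim, and the change of Car9 exceeded it by 2.52 ± 0.30.

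The next targets rose by less than 2-fold. Ero1a, an oxidase that makes disulfide bonds in the endoplasmic reticulum, rose by 0.78 ± 0.06 (adjusted p = 2.39e-05). Bnip3 and Bnip3l encode receptors that mark mitochondria for removal. Bnip3 went from 9.18 ± 0.13 (SD, n = 3) on day 0 to 9.93 ± 0.06 on day 1, a rise of 0.75 ± 0.08 (adjusted p = 1.28e-04), and Bnip3l rose by 0.44 ± 0.06 (adjusted p = 6.12e-04). Kdm3a, a histone demethylase, rose by 0.66 ± 0.09 (adjusted p = 3.67e-04), and Ndrg1, a gene of stress and differentiation, by 0.40 ± 0.06 (adjusted p = 7.72e-04). The arrays of each of these genes were apart between the days.

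Adm, Ankrd37 and Ddit4, which HIF is known to drive, did not pass the test. Adm, which encodes the vasodilator peptide adrenomedullin, stood at 7.48, 7.40 and 7.39 on day 0 and at 7.19, 7.30 and 7.40 on day 1, a change of -0.12 ± 0.07 (95% confidence interval -0.29 to 0.04, adjusted p = 0.195). Ankrd37 stood at 5.43, 5.44 and 5.28 and then at 5.50, 5.43 and 5.61, a change of 0.13 ± 0.08 (interval -0.05 to 0.30, adjusted p = 0.211). Ddit4, an inhibitor of mTOR signalling, stood at 8.45, 8.36 and 8.42 and then at 8.49, 8.35 and 8.50, a change of 0.04 ± 0.07 (interval -0.12 to 0.20, adjusted p = 0.673). The highest upper bound among these 3 intervals was 0.30. The row of Ankrd37 was dim, but those of Adm and Ddit4 were brighter than 60.2% and 76.1% of genes on day 0.

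The oxygen-sensing genes were mixed as well. Hif1a stood at 9.52, 9.45 and 9.41 on day 0 and at 10.50, 10.57 and 10.65 on day 1, a rise of 1.12 ± 0.07 or 2.17-fold (adjusted p = 5.08e-06). Epas1, which encodes the alpha subunit HIF-2alpha prominent in endothelium, stood at 9.40, 9.42 and 9.29 and then at 9.10, 9.04 and 9.37, a change of -0.20 ± 0.10 (adjusted p = 0.131). The change of Hif1a exceeded that of Epas1 by 1.31 ± 0.08. Day 1 replicate 3 was the high array of Epas1, and without it the change was -0.30 (adjusted p = 0.0179). With quantile normalization the change of Epas1 was -0.29 (adjusted p = 0.0449). The intensity trend with a robust prior gave an adjusted p of 0.0348.

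Egln3, a hydroxylase gene that is itself a HIF target, stood at 8.93, 8.82 and 8.76 on day 0 and at 9.04, 8.93 and 9.04 on day 1, a change of 0.17 ± 0.07 (adjusted p = 0.0853). It passed with median centring (0.22, adjusted p = 0.0439) and with the intensity trend (adjusted p = 0.0270). It also passed when day 0 replicate 1 was left out (0.22, adjusted p = 0.0483). In each of these its change stayed far below that of Hif1a. Egln1, the main hydroxylase, was at -0.03 ± 0.06 (interval -0.17 to 0.12, adjusted p = 0.746), and its 2 rows changed by -0.03 and 0.11.

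In each day 1 array the enzymes lay above the targets outside glycolysis on average. The mean deviation of the 15 glycolytic enzymes from their day 0 means was 1.08, 1.01 and 0.95 in the 3 day 1 arrays. For the 10 targets outside glycolysis it was 0.65, 0.68 and 0.66, a mean that includes Car9 with its change of 3.04. The median deviation of the targets was 0.43, 0.60 and 0.48, and that of the enzymes 1.18, 1.07 and 1.09. For the 6 genes of glucose and pyruvate control the mean deviation was 0.98, 0.81 and 1.00. That was below the enzymes in replicates 1 and 2 and above them in replicate 3. For the 4 oxygen-sensing genes the mean deviation was 0.22, 0.23 and 0.35. A log2 change of at least 0.5 was reached by 13 of the 15 enzymes, by 5 of the 6 control genes and by 5 of the 10 targets, compared with 13.8% of all genes.

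**Figure D3:**
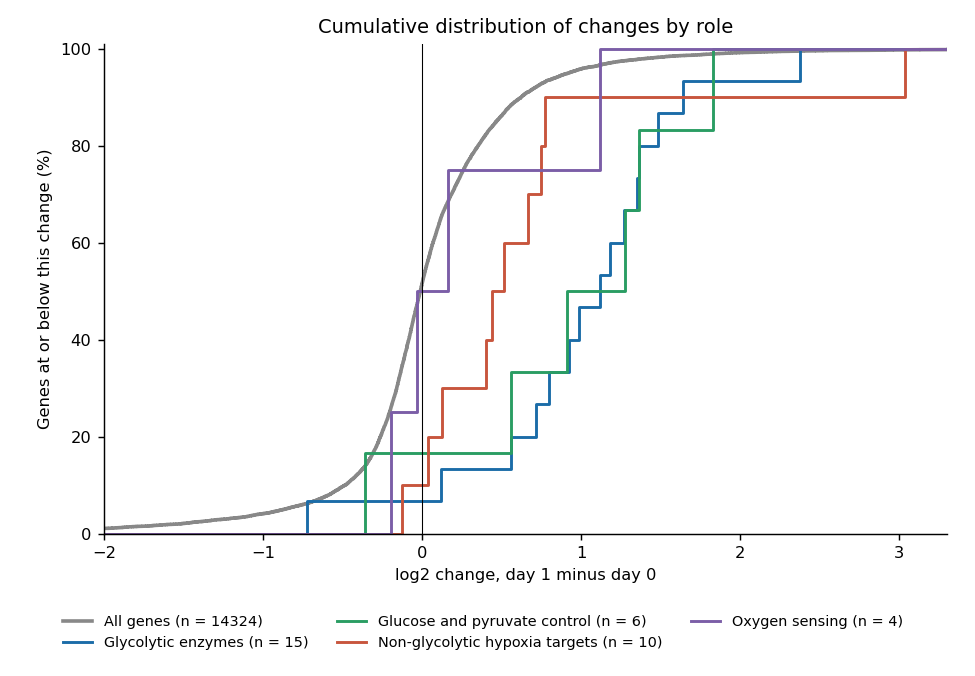
Share of genes (vertical axis, percent) at or below each log2 change from day 0 to day 1 (horizontal axis), for all 14324 genes in grey and for the 4 roles in colour. The curves of the glycolytic enzymes (n = 15) and of the control genes (n = 6) lie to the right of that of the targets outside glycolysis (n = 10) over most of their length, and the targets reach furthest right through Car9 at 3.04. Of the 4 oxygen-sensing genes, Hif1a lies at 1.12 and the others between -0.20 and 0.17.

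Other genes of glucose use were read from companion lists. The shares over all genes to set beside the counts of these lists were 27.6% that rose and 20.7% that fell. Of 15 measured further glycolysis genes 4 rose and 4 fell, with a median change of 0.00. Hk3, the hexokinase of white blood cells, rose by 1.17 ± 0.14 (adjusted p = 2.12e-04) and Galm, which interconverts the ring forms of sugars, by 0.73 ± 0.07 (adjusted p = 4.91e-05). Eno3, the muscle enolase, stood at 8.83, 8.81 and 8.77 on day 0 and at 6.42, 6.49 and 6.23 on day 1, a fall to a level 5.37-fold lower (log2 change -2.43 ± 0.08, adjusted p = 2.55e-07). Ldhb, the heart form of lactate dehydrogenase, fell by 0.30 ± 0.05 (adjusted p = 0.00221). Of 9 measured further genes of the glucose transporter families, not all of which carry mainly glucose, 1 rose and 3 fell. The gene that rose was Slc2a12, at 0.65 ± 0.09 (adjusted p = 5.00e-04). Slc2a4, the insulin-responsive transporter GLUT4 of muscle and fat, stood at 9.31, 9.36 and 9.26 and then at 6.91, 6.82 and 6.63, a change of -2.52 ± 0.08 (adjusted p = 2.43e-07), and Slc2a10 was at -1.73 ± 0.07 (adjusted p = 8.66e-07).

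The third of these transporter genes that fell, Slc2a13, was at -0.86 ± 0.08 (adjusted p = 6.64e-05). Of 9 measured glycogen genes 4 rose and 5 fell. The largest rises were those of Ugp2, at 0.55 ± 0.06 (adjusted p = 1.61e-04), and Gys1, at 0.42 ± 0.06 (adjusted p = 7.94e-04). All 3 glycogen phosphorylase genes were among those that fell. Pygm, the muscle form, was at -2.41 ± 0.07 (adjusted p = 1.33e-07), Pygb, the brain form, at -0.69 ± 0.06 (adjusted p = 5.71e-05) and Pygl, the liver form, at -0.40 ± 0.08 (adjusted p = 0.00376). The muscle mutase gene Pgam2 was at 0.00 ± 0.11 (adjusted p = 0.998). Ldhb, Pgam2, Pygl and Slc2a13 are named here after their values were seen.

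**Figure D4:**
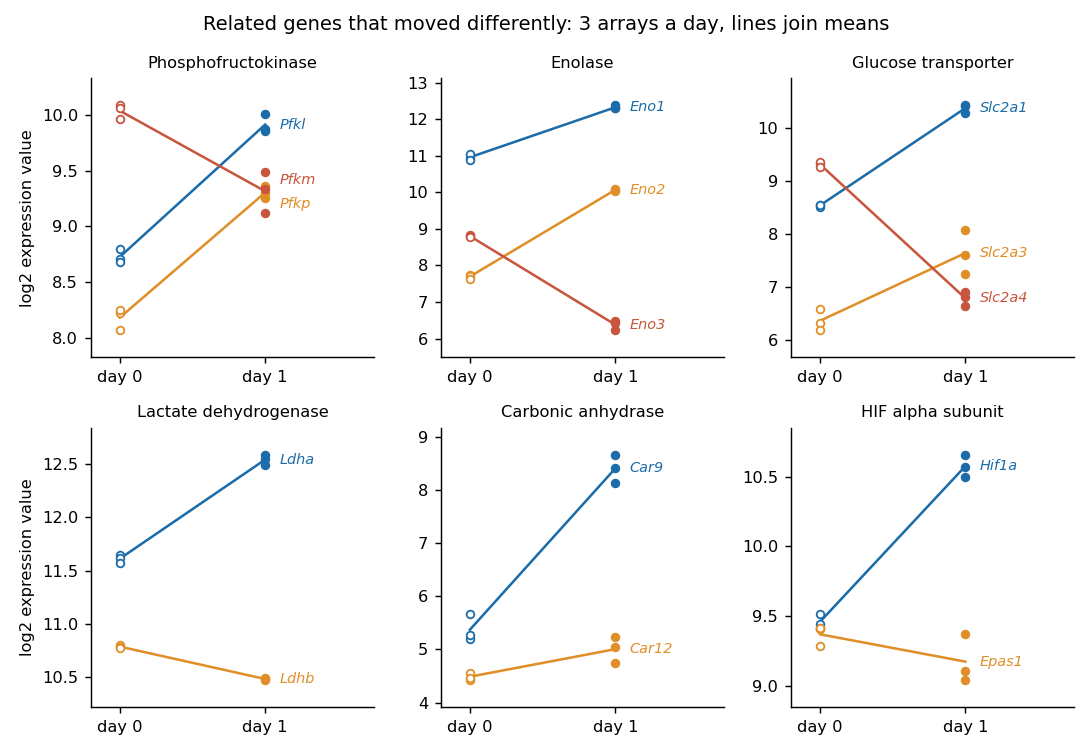
Log2 expression value (vertical axis) on day 0 (open points) and day 1 (filled points) for 6 families of related genes, with 3 arrays a day and lines joining the means. Pfkm, Eno3, Slc2a4 and Ldhb go down while the relatives drawn beside them go up, Car9 rises more than Car12, and Hif1a rises while Epas1 does not. The crossing of lines has no meaning, since rows of different genes are not on a common scale.

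Markers of the tissue moved along with these genes. All 8 measured of 9 smooth muscle markers fell, among them Myh11 and Cnn1, and their summed level went from 15.13 to 15.17 on day 0 to 11.74 to 11.92 on day 1. Among 8 markers of skeletal and heart muscle, 4 fell and 1 rose, with summed levels of 11.36 to 11.41 on day 0 and 8.66 to 8.76 on day 1. Of 7 white adipocyte markers 5 fell (9.61 to 9.79 on day 0, 8.88 to 9.10 on day 1), and of 5 measured brown adipocyte markers 3 fell (9.01 to 9.23, then 7.05 to 7.22). Erythroid markers fell in 3 of 4 measured cases (9.78 to 10.29, then 7.59 to 7.81). Macrophage markers rose in 3 of 7 cases and fell in 2 (11.53 to 11.62, then 12.04 to 12.19). Endothelial markers rose in 4 of 5 measured cases and fell in 1 (10.83 to 10.97, then 10.85 to 10.98). Among 7 adventitial fibroblast markers 3 rose and 4 fell, and their summed level was 14.94 to 15.01 on both days. The table held no value of 0. In bulk RNA, fewer cells of a type and less RNA per cell cannot be told apart. The part of these shifts in the changes of Pfkm, Eno3, Pygm, Slc2a4, Hk3 and the other genes described here was not tested.

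Of 6 measured pentose phosphate genes 5 rose, with a median change of 0.69. Taldo1, the transaldolase gene, rose by 1.66 ± 0.06 (adjusted p = 4.45e-07) and the isomerase gene Rpia by 0.79 ± 0.07 (adjusted p = 3.82e-05). Of 14 genes of pyruvate oxidation and transport 6 rose and 3 fell, with a median of 0.07. The monocarboxylate transporter gene Slc16a1 rose by 1.63 ± 0.07 (adjusted p = 8.94e-07), while the pyruvate dehydrogenase subunit gene Pdhb was at -0.51 ± 0.07 (adjusted p = 3.83e-04) and its activating phosphatase gene Pdp2 at -0.50 ± 0.07 (adjusted p = 6.64e-04). Of 7 gluconeogenesis genes 1 rose and 1 fell, the latter being Pck1, the enzyme that commits carbon to glucose, at -1.58 ± 0.10 (adjusted p = 6.89e-06).

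Of 13 genes for partners and regulators of HIF, some of which act against it, 6 rose. The changes of all 13 ranged from -0.13 to 0.92. The largest rise was that of Cited2, a HIF target whose product competes for the HIF coactivators, at 0.92 ± 0.07 (adjusted p = 2.19e-05). Vhl, which marks hydroxylated HIF alpha for destruction, rose by 0.50 ± 0.06 (adjusted p = 2.01e-04). Arnt, the constant partner of the alpha subunits, was at -0.07 ± 0.06 (adjusted p = 0.314) and is named after its value was seen.

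Further hypoxia targets outside the module went both ways. Of 32 measured, 17 rose and 7 fell, with a median of 0.37. The chemokine receptor gene Cxcr4 rose by 3.03 ± 0.11 (adjusted p = 4.29e-07) and the repressor gene Bhlhe40 by 2.37 ± 0.06 (adjusted p = 8.89e-08). Lox, which cross-links collagen and elastin, was at -1.31 ± 0.07 (adjusted p = 2.24e-06), and the lipoprotein receptor gene Vldlr at -1.04 ± 0.06 (adjusted p = 5.16e-06).

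**Figure D5:**
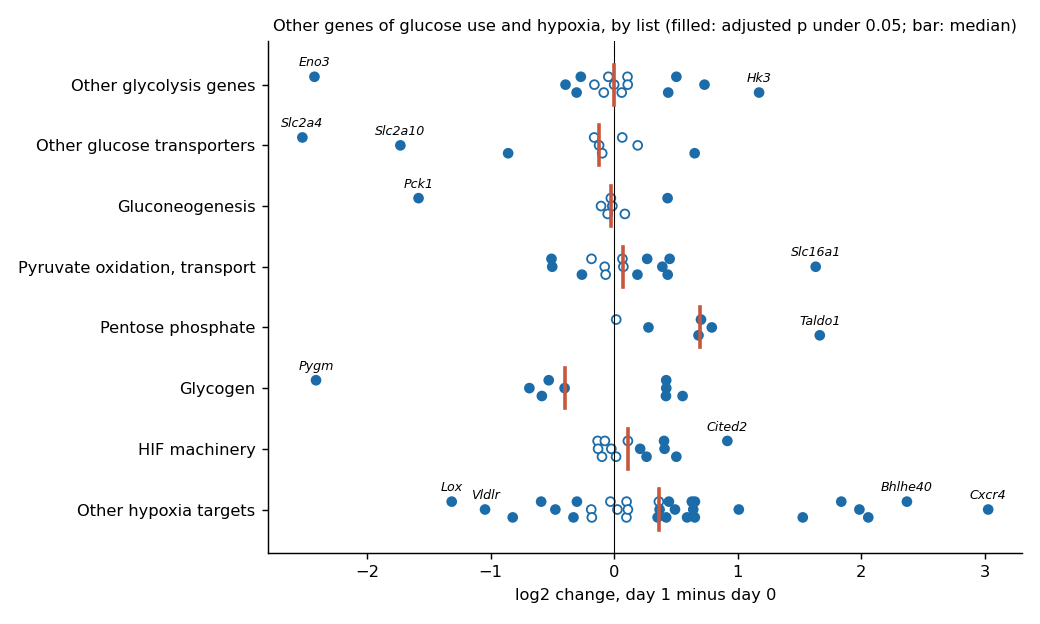
Log2 change from day 0 to day 1 (horizontal axis) of the measured genes of 8 companion lists, filled where the adjusted p was under 0.05 and open where it was not, with a bar at the median of each list. The pentose phosphate bar stands at 0.69 and that of the other hypoxia targets at 0.37, while the bars of the other glycolysis genes, gluconeogenesis and pyruvate oxidation lie between -0.03 and 0.07.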

How the data were processed

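RNA of 6 pooled samples, 3 per day, was prepared by Affymetrix sense-target labelling, per the labels' protocols, and each sample was measured on 1 array. The deposited table holds log2 expression values for 27342 rows, with array medians of 5.87 to 5.95 and no further scaling here. The log2 scale was inferred from their range (1.32 to 14.16). The submitters' processing notes name limma. For probe summarisation and normalization by the authors, the method was not given in the sources used here. The number of arrays limits the precision.

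Rows were named from the array annotation, with symbols updated through a GRCr8 gene table (15067 rows by gene ID, 6 by accession, 24 kept). Of the rows, 15097 had 1 symbol, 323 several and 11922 none. Only rows with 1 symbol were used. Of a gene with several rows, the row with the highest mean was kept.

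Day 1 was compared with day 0 by limma 3.58.1 in R 4.3.3 (lmFit, eBayes, without a block). Two-sided p-values were adjusted by Benjamini-Hochberg across the 14324 genes and called under 0.05. The fit was run on simulated data with independent noise and few changed genes, which checks the code and not the calls made here. Every measured member was named, and from each companion list at most the 2 largest rises and 2 largest falls, with exceptions marked in the text. The members and lists were chosen with earlier results of these data known. Promoter windows came from RefSeq (GRCr8), as no build of the array is given. Tables and figures were made with Python 3.11.15, pandas 2.3.3, scipy 1.17.1 and matplotlib 3.10.9. Alternatives were quantile normalization, median centring, a filter on the dimmest 25% of genes, the mean or most variable row of a gene, an intensity trend with robust prior, a block for the replicate number, and fits that each dropped 1 of the 6 arrays.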

Additional observations from a re-analysis of the deposited data

How the results depend on the processing

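Across 13 alternatives the 35 members gave 454 values, of which 445 kept the call, 2 lost it and 7 gained it, and 27 of the 28 called members kept their call in every alternative that measured them. The exception was Pfkfb4. Members called lower were 2, but 3 with quantile normalization or with the intensity trend and robust prior. When an array was left out they were 1 to 3. Genes of glucose and pyruvate control called lower were 1, and 0 to 1 when an array was left out. Oxygen-sensing genes called higher were 1, but 2 with median centring or with the intensity trend and robust prior, and 1 to 2 when an array was left out. Those called lower, 0 by limma as reported, were 1 with quantile normalization or with the intensity trend, and 0 to 1 when an array was left out; at an unadjusted p of 0.05 they were also 0. The median change of the glycolytic enzymes, 1.12, was 1.01 with quantile normalization and 1.06 to 1.15 when an array was left out. That of the control genes, 1.09, ranged from 1.00 to 1.15 when an array was left out. The cause was not tested. The filter on dim genes removed 1 member, Car12, leaving 6 targets outside glycolysis called higher. Same-numbered arrays of the 2 days had deviations correlated at 0.01, 0.02 and 0.04 across genes. Arrays with different numbers gave -0.05 to 0.04. With 3 arrays a day these values cannot tell whether same-numbered pools share animals. With the replicate number as a block, 26 members were called higher and 2 lower, no member's call changed, and the block moved the genes called from 3947 to 3815 higher and from 2968 to 2871 lower. Levels of Pgam1, Pfkfb4, Ankrd37 and Car12, and of Car9 and Slc2a3 on day 0, were dimmer than the median gene, which limits their folds.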
